A study of Mus musculus with 50 samples.

Results

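The comparison described here was that of D1-MSNs with D2-MSNs of the nucleus accumbens (NAc) in mice that were resilient to chronic social defeat stress. It rested on 9 of the 50 libraries of the study, 4 labelled D1 Res and 5 labelled D2 Res, each an immunoprecipitate (IP) of tagged ribosomes. The members were chosen by their labels alone, and a further column named D1 Res 5 had no sample description among those used here and was left out. D1 Res libraries came from RT; D1-Cre mice and D2 Res libraries from RT; D2-Cre mice, all on the C57BL/6 strain and 8 to 12 weeks old. Both lines carried the RiboTag (RT) allele, in which Cre switches the ribosomal protein Rpl22 to a form with an HA tag, so that an antibody to HA pulls down the mRNA of Cre-expressing cells. Cre was driven from a *Drd1* or a *Drd2* transgene made from a bacterial artificial chromosome, and the *Drd2* promoter is active in D2-MSNs and also in other cells, the cholinergic interneurons of the striatum among them. All of these mice had met an aggressive CD1 male daily for up to 10 days and were then sorted as resilient (Res) by a social interaction test; other mice of the same lines were susceptible (Sus) or undefeated controls (Con). Each library pooled NAc punches of 2 mice. Inputs, the whole-tissue RNA set aside before the IP, were sequenced for 3 D1 Res and 3 D2 Res pools.

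Medium spiny neurons (MSNs) are the GABAergic projection neurons that make up most of the NAc. D1-MSNs carry the D1 receptor, which raises cAMP when dopamine binds, and release dynorphin and substance P. D2-MSNs carry the D2 receptor, which lowers cAMP, together with an adenosine receptor, and release enkephalin. The 2 classes have been tied to opposite effects on reward and on the response to stress.

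Depth ran from 22874477 to 29680185 counts on genes in the 9 IPs and from 18384265 to 28179940 in the 6 inputs. Pearson's r of log2 CPM (counts scaled to a common library total with TMM factors) was 0.988 to 0.991 in the 6 pairs of D1 Res libraries, 0.986 to 0.992 in the 10 pairs of D2 Res libraries and 0.978 to 0.986 in the 20 pairs across the groups, a description over genes that share each library. Replicates differed by far more than counting noise (chi-square per gene 8.18 to 91.7 over the 16 pairs within a group), so each library counted once. In RNA from pooled cells, fewer cells of a type and less RNA per cell cannot be told apart. The D1 Res 1 library stood apart from the other 3 of its group in cholinergic genes, and results that rest on it are given without it below.

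The 4 marker genes that define the classes separated the 9 libraries. *Drd1*, the D1 receptor, stood at 291, 323, 318 and 339 CPM in the 4 D1 Res libraries and at 114, 135, 165, 116 and 107 CPM in the 5 D2 Res libraries. *Pdyn*, the dynorphin precursor, stood at 480.4, 496, 461 and 536 CPM in D1 Res and at 72.5, 103, 118, 92.9 and 83.1 CPM in D2 Res. For both genes every D1 Res library was above every D2 Res library, 2.5-fold for *Drd1* (log2 1.32 ± 0.119 SE, adjusted p = 1.62e-08, edgeR) and 5.26-fold for *Pdyn* (log2 2.40 ± 0.17 SE, adjusted p = 5.95e-10). *Drd2*, the D2 receptor, stood at 91.1, 104, 98.2 and 99.2 CPM in D1 Res and 354, 371, 312, 320.5 and 291 CPM in D2 Res. *Adora2a*, the adenosine receptor of D2-MSNs, stood at 287, 296, 319 and 296 CPM in D1 Res and 928, 776, 794, 844 and 707 CPM in D2 Res. These 2 were higher in every D2 Res library, 3.36-fold for *Drd2* (log2 -1.75 ± 0.0887 SE, adjusted p = 1.11e-14) and 2.7-fold for *Adora2a* (log2 -1.44 ± 0.0953 SE, adjusted p = 1.00e-11). None of the 4 was absent from the other class. In the inputs, *Pdyn* ran from 139 to 197 CPM and *Adora2a* from 128 to 188 CPM over the 6 libraries, so that each IP class lay on the opposite side of the whole tissue for *Pdyn*, while both classes lay above it for *Adora2a*.

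**Figure D1:**
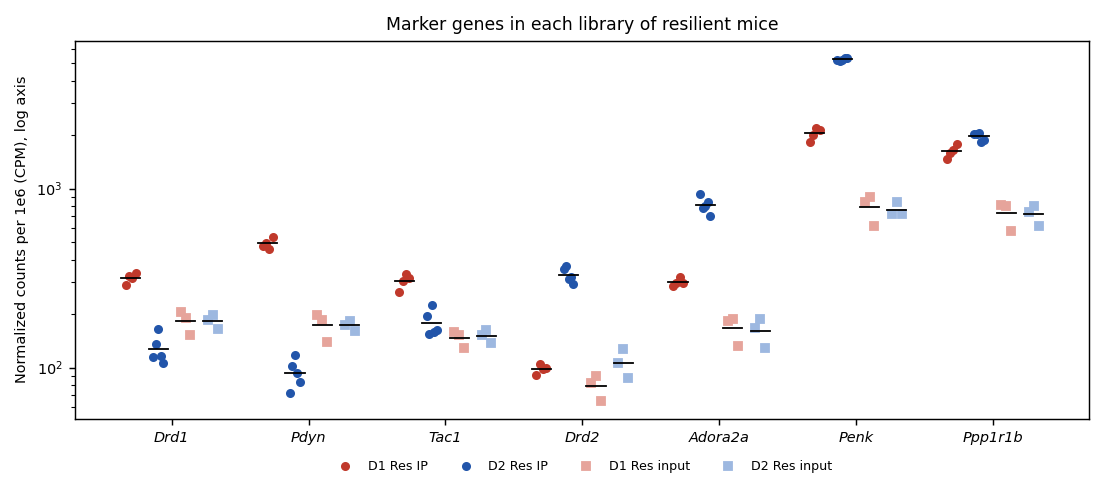
CPM, counts scaled to a common library total (log axis), of 7 marker genes in the 4 D1 Res IPs, 5 D2 Res IPs and 3 inputs of each line; points are libraries and bars are group means. *Drd1*, *Pdyn* and *Tac1* were higher in every D1 Res IP, *Drd2*, *Adora2a*, *Penk* and *Ppp1r1b* in every D2 Res IP, and the inputs of the 2 lines lay close together except for *Drd2*, where 2 of the 3 D2 Res inputs were above all 3 D1 Res inputs.

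The other marker genes of each class mostly followed. Of the 10 listed D1-MSN markers, 8 were called higher in D1 Res, where a gene was called at a fold over 1.5 and an adjusted p under 0.05, against 3.62% of all genes tested called in that direction. *Tac1*, which encodes substance P, was at 264, 305, 333 and 318 CPM in D1 Res and 195, 155, 224, 157 and 161 CPM in D2 Res (1.71-fold, adjusted p = 4.84e-05). *Ebf1*, a transcription factor of D1-MSN differentiation, was at 10.5, 10.5, 12.1 and 15.1 CPM in D1 Res and 1.16, 2.29, 1.12, 1.56 and 3.01 CPM in D2 Res (6.66-fold, adjusted p = 1.62e-08). The muscarinic receptor *Chrm4* (1.84-fold), the transcription factor *Isl1* (2.35-fold), the transporter family member *Slc35d3* (2.75-fold) and the mitochondrial carrier *Sfxn1* (1.54-fold) were also called. *Eya1* was 1.37-fold higher (adjusted p = 0.0208) and short of the fold limit. *Tshz1*, a zinc finger factor on the same list, went the other way, at 73.1, 77.7, 90.9 and 79.6 CPM in D1 Res and 153, 170.4, 165, 135 and 136 CPM in D2 Res (1.89-fold higher in D2 Res, adjusted p = 1.33e-07).

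All 8 listed D2-MSN markers were called higher in D2 Res, against 1.79% of all genes tested. *Penk*, the enkephalin precursor, was at 1826, 1984, 2191 and 2120.2 CPM in D1 Res and 5236, 5178, 5246, 5349 and 5362 CPM in D2 Res (2.6-fold, log2 -1.38 ± 0.0943 SE, adjusted p = 1.23e-11). The D2 Res libraries agreed closely for *Penk* (5274 ± 78.9 CPM, SD, n = 5). The constitutively active receptor *Gpr6* (2.51-fold), the orphan receptor *Gpr52* (2.42-fold) and the transcription factor *Sp9* (2.5-fold), which is needed for D2-MSN development, moved by about as much as *Adora2a*. The delta opioid receptor *Oprd1* was at 21.2 to 30.4 CPM in D1 Res and 44 to 58.1 CPM in D2 Res (2.11-fold), and the kainate receptor subunit *Grik3* at 193 to 254 and 336 to 388 CPM (1.64-fold, under the fold limit at log2 -0.42 when libraries were scaled to the shared MSN genes described next).

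Genes that both MSN classes use were on the whole somewhat lower in D1 Res. Of 19 such genes, 18 had a negative log2 fold change, 13 of them with an adjusted p under 0.05 at any fold, and the median was -0.28 beside -0.01 over all genes tested. By the call rule 1 of the 19 was higher in D2 Res and none in D1 Res. *Ppp1r1b*, which encodes DARPP-32, was at 1453, 1587, 1647 and 1766 CPM in D1 Res and 2008, 2026, 2037, 1828 and 1865 CPM in D2 Res (log2 -0.28 ± 0.088 SE, adjusted p = 0.0285), without overlap; scaled to these 19 genes themselves its difference was 0.018. *Foxp1*, an MSN transcription factor, was at 379 to 471 CPM in D1 Res and 607 to 677 CPM in D2 Res (1.47-fold) and passed the fold limit without D1 Res 3 or D1 Res 4 (log2 -0.60 and -0.59). The summed level of the list was 12797 to 14823 CPM in D1 Res and 15792 to 17519.9 in D2 Res, without overlap, and 7947 to 9555 CPM in the D1 Res inputs and 8165 to 9521 in the D2 Res inputs, which overlap.

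The regions upstream of 4 genes that mark the classes are shown because the 2 classes differ in cAMP signaling, and a cAMP response element is a known route from cAMP to transcription. Each was read from the 250 bases before the transcription start of the RefSeq promoter table for GRCm38.p6 and is written 5′ to 3′ on the strand of the gene, with the core of that element, CGTCA or its reverse complement TGACG, in capitals. *Drd1* lies on chr13 (chr13:54055706-54055908, minus strand), *Pdyn* on chr2 (chr2:129699939-129700188, minus strand), *Tac1* on chr6 (chr6:7554811-7554878, plus strand) and *Drd2* on chr9 (chr9:49340153-49340402, plus strand). GENCODE vM21 begins *Tac1* and *Drd1* earlier than that table does, so the last 182 bases of the *Tac1* window and the last 47 of the *Drd1* window lie inside the annotated genes and were left off, which leaves 68 and 203 bases.
Drd1: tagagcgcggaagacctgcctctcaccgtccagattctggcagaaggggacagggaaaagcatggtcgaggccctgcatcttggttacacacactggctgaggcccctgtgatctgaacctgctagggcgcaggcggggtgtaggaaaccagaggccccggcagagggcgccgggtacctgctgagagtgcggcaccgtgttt
Pdyn: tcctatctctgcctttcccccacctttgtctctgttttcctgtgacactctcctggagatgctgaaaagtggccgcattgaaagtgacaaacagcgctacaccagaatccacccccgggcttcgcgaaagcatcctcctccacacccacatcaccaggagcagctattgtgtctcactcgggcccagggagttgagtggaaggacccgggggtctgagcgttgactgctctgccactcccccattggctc
Tac1: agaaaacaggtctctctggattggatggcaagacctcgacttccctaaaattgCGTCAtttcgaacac
Drd2: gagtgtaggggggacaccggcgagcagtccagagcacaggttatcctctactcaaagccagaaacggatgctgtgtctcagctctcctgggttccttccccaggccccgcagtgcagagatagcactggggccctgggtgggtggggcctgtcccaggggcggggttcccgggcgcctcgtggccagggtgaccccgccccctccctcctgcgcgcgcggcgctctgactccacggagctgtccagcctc
The *Tac1* stretch held CGTCA 1 time, starting 197 bases before the RefSeq start and 15 before the GENCODE start, and the other 3 held it on neither strand. The part of the *Tac1* window inside the annotated gene held it once more, 43 bases before the RefSeq start. The full palindrome TGACGTCA, which contains the core, and the TATA-box letters TATAAA were in none of the 4. Over the full 250-base windows, not trimmed in this way, CGTCA on either strand was found in 21.1% of 380 genes called higher in D1 Res, 20.3% of 187 called higher in D2 Res and 26.7% of the 11042 genes tested, and TATAAA in 8.68%, 4.81% and 6.17%. The table held a window for 76 of the 106 genes named by rule; *Penk* and *Adora2a* were among the others.

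Across all 14224 genes tested, 769 differed between D1 Res and D2 Res by the call rule, 5.41% of them. Of these, 515 were higher in D1 Res (3.62%) and 254 in D2 Res (1.79%). At an adjusted p under 0.05 with no limit on the fold there were 2447 genes, 1344 higher in D1 Res and 1103 higher in D2 Res. Over 2-fold, 264 called genes were higher in D1 Res and 79 in D2 Res, and over 4-fold 52 and 12. The 9 libraries did not overlap in CPM for 626 of the 769 called genes, and for 16.8% of all genes tested. The excess of genes higher in D1 Res depended on the scaling. With libraries scaled to the 19 shared MSN genes, an alternative chosen after the data were seen, the median of all genes moved to 0.28 on the log2 scale, and 1486 genes were called higher in D1 Res against 92 in D2 Res (94.2% against 67.0% higher in D1 Res). With a test against the fold of 1.5 itself (glmTreat), 124 genes were called, 85 higher in D1 Res and 39 in D2 Res.

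**Figure D2:**
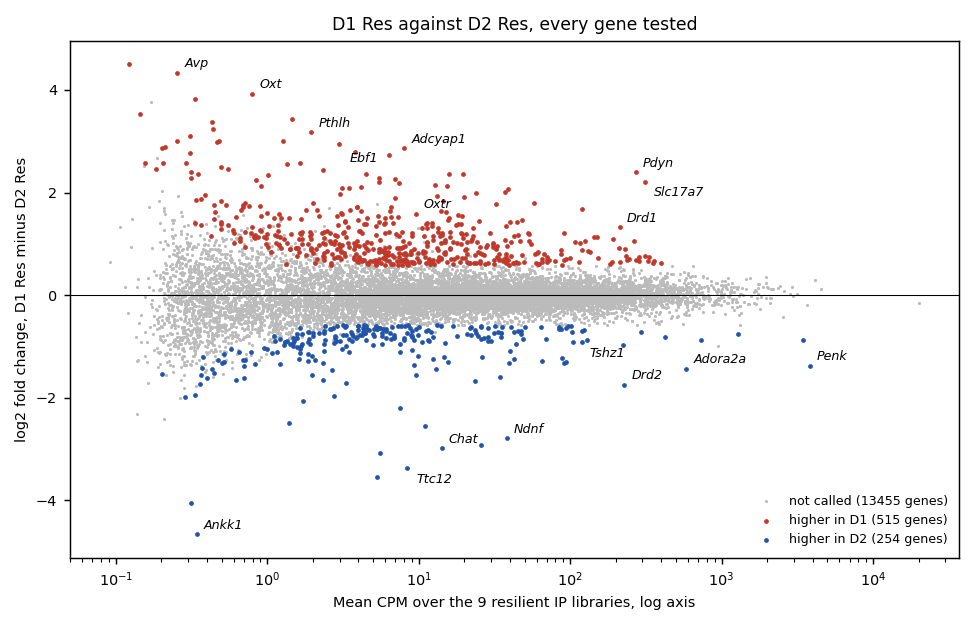
log2 fold change of D1 Res over D2 Res (TMM scaling) against mean CPM over the 9 resilient IPs (log axis) for all 14224 genes tested. The 515 genes called higher in D1 Res (red) and the 254 called higher in D2 Res (blue) had median mean levels of 6.52 and 5.30 CPM beside 20.0 CPM over all genes, and the D2-MSN markers *Penk*, *Adora2a* and *Drd2* lie far to the right of the cholinergic gene *Chat* and of *Ttc12*.

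The genes with the largest folds toward D1 Res, among called genes without overlap and with a mean of at least 5 CPM, were the leading 12 of 264 such genes. *Adcyap1*, which encodes the stress-related peptide PACAP, was at 21.9, 12.9, 17 and 9.99 CPM in D1 Res and 3, 2.57, 2.47, 1.2 and 1.36 CPM in D2 Res (7.26-fold, log2 2.86 ± 0.403 SE, adjusted p = 2.72e-05). *Ebf1* and *Pdyn* were the next 2. *Slc17a7*, the vesicular glutamate transporter of cortical excitatory neurons, was at 515, 644, 686 and 374 CPM in D1 Res and 198, 149, 166, 28.4 and 58.6 CPM in D2 Res (4.62-fold, log2 2.21 ± 0.566 SE, adjusted p = 0.00884). Its D2 Res libraries spread widely, with D2 Res 4 and D2 Res 5 far under the other 3. *Hs3st2*, a heparan sulfate sulfotransferase, was at 36.3, 40.9, 40.7 and 23.3 CPM in D1 Res and 8.72, 9.43, 8.47, 4.09 and 3.55 CPM in D2 Res (5.14-fold). The zinc transporter of glutamatergic vesicles *Slc30a3* (4.4-fold), the Wnt ligand *Wnt7b* (4.38-fold), the secreted Wnt antagonist *Frzb* (4.53-fold), the matricellular protein *Ctgf* (5.12-fold), the Nogo receptor family member *Rtn4rl2* (4.59-fold), the secreted protein *Fam19a1* (4.81-fold) and *Medag* (4.86-fold) completed the 12. *Ctgf* varied most, from 11.7 to 42.2 CPM in D1 Res and 0.798 to 10.5 CPM in D2 Res, and was not called in a model of the 9 resilient libraries alone (adjusted p = 0.0563).

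Several of these genes are known from cortical excitatory neurons, and part of the markers of those cells moved with them. Of 10 listed markers of cortical excitatory neurons, 4 were called higher in D1 Res and none in D2 Res. That was 40% beside 5.41% of all genes tested, with a median log2 fold change of 1.23. The counts of calls were the same without any single library. Of the 10 markers, 7 had a positive log2 fold change and 3 a negative one, down to -0.40. Of these 3, 1 had an adjusted p under 0.05 at any fold. The called members were *Slc17a7* and the transcription factors *Tbr1*, *Neurod2* and *Emx1*. *Tbr1* was at 55.2, 82.9, 82.5 and 47 CPM in D1 Res and 25.8, 20.2, 20.2, 4.62 and 8.86 CPM in D2 Res (4.2-fold, adjusted p = 0.00242). *Neurod2* was 3.74-fold and *Emx1* 5.93-fold higher, both without overlap. *Emx1* stood at 1.5, 0.276, 0.562, 0.0332 and 0.165 CPM in D2 Res, and without D2 Res 1, the highest, its log2 fold change went from 2.57 to 3.57. The summed level of the 10 markers was 986 to 1476 CPM in D1 Res and 665 to 1070.2 in D2 Res, and none of the 10 was at 0 in all 9 libraries. The same sum was 660.3 to 1772 CPM in the D1 Res inputs and 769.7 to 1213 in the D2 Res inputs, and *Slc17a7* alone was at 486, 207 and 974 CPM in the D1 Res inputs and 599, 592 and 313 CPM in the D2 Res inputs. The part of cortical RNA in the genes higher in D1 Res was not tested.

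The largest folds toward D2 Res included several genes of cholinergic interneurons. *Chat*, which makes acetylcholine, was at 6.42, 1.5, 2.02 and 1.89 CPM in D1 Res and 19.1, 22.5, 18.9, 21.8 and 33.4 CPM in D2 Res (7.92-fold, log2 -2.98 ± 0.294 SE, adjusted p = 1.33e-07). The choline transporter *Slc5a7* was at 11.6, 2.86, 4.31 and 3.6 CPM in D1 Res and 35.7, 39.4, 44.6, 47.8 and 41 CPM in D2 Res (7.54-fold). In both genes no library overlapped, and D1 Res 1 was the highest of its group. The vesicular acetylcholine transporter *Slc18a3*, which lies inside the *Chat* locus on the same strand so that reads could be shared, was 8.43-fold higher, and the vesicular transporter family member *Slc10a4* 5.81-fold higher. Without D1 Res 1 the log2 fold changes of *Chat*, *Slc18a3* and *Slc5a7* went from -2.98, -3.08 and -2.91 to -3.66, -4.04 and -3.52. The substance P receptor *Tacr1* was at 8.99 to 14.5 CPM in D1 Res and 30.8 to 36.6 CPM in D2 Res (3.18-fold, adjusted p = 2.41e-11), and the endopeptidase-like *Ecel1* at 10.3 to 26.4 and 42.5 to 58.7 CPM (3.02-fold).

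Over the whole list, 7 of 9 markers of cholinergic interneurons were called higher in D2 Res and none in D1 Res. That was 77.8% beside 5.41% of all genes tested, with a median log2 fold change of -1.67. The counts were the same when any single library was left out. The vesicular glutamate transporter *Slc17a8* was also called (2.36-fold), while the transcription factors *Lhx8* (log2 -0.21 ± 0.305 SE) and *Gbx2* (log2 0.01 ± 0.328 SE) did not pass. The summed level of the 9 markers was 39.1 to 80.9 CPM in D1 Res and 171 to 211 in D2 Res, with no overlap, and D1 Res 1 at 80.9 CPM stood above the other 3 D1 Res libraries at 39.1 to 45.9 CPM. It was 103 to 194 CPM in the D1 Res inputs and 141 to 226 in the D2 Res inputs, so that the D2 Res IPs lay within the range of whole tissue and the D1 Res IPs below it. None of the 9 was at 0 in all libraries. Without D1 Res 1, 614 genes were called over the whole table, 409 higher in D1 Res and 205 in D2 Res.

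**Figure D3:**
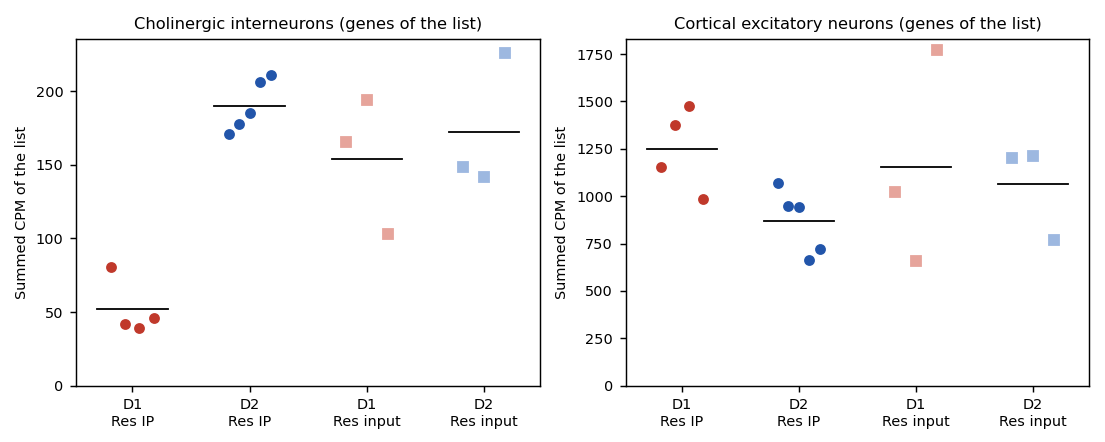
Summed CPM (axes from 0) of 9 markers of cholinergic interneurons (left) and 10 markers of cortical excitatory neurons (right) in each resilient library; circles are IPs, squares inputs and bars group means. The cholinergic sum separated the IP classes, with D1 Res 1 the highest of its group at 80.9 CPM, while the cortical sum overlapped between the classes and spread most in the inputs.

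Other genes among the largest folds toward D2 Res were of other kinds. *Ndnf*, a secreted neurotrophic factor, was at 10.4, 7.79, 9.49 and 8.1 CPM in D1 Res and 56.2, 69.5, 73.3, 56.4 and 52.3 CPM in D2 Res (6.88-fold, adjusted p = 6.23e-07). *Mdfic*, a regulator of transcription, was 4.56-fold higher and the axonemal dynein *Dnah6* 2.92-fold higher. *Ttc12*, a tetratricopeptide protein of dynein assembly, was at 1.78, 1.14, 1.23 and 1.28 CPM in D1 Res and 16.9, 14.2, 15.1, 11.6 and 12.4 CPM in D2 Res (10.3-fold, log2 -3.37 ± 0.172 SE, adjusted p = 1.09e-14), the smallest p of the whole comparison.

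*Ttc12* is a neighbor of *Drd2* on chromosome 9, 28786 bases away in GENCODE vM21, with *Ankk1* between them. *Ankk1*, a kinase-like gene, had 2 counts in all in the 4 D1 Res libraries and 82 in the 5 D2 Res libraries, a rate ratio of 31.6 (exact 95% interval 8.46 to 264.9, counting error only), and both D1 Res counts were in D1 Res 1. Of 6 genes around *Drd2*, *Drd2*, *Ankk1* and *Ttc12* were called higher in D2 Res, 50% beside 5.41% of all genes tested. The cell adhesion gene *Ncam1* (log2 0.02 ± 0.0533 SE), the kinetochore gene *Zw10* (log2 -0.17 ± 0.089 SE) and the protease *Tmprss5* (log2 -0.11 ± 0.444 SE) were not called. *Ttc12* also differed in whole tissue, at 2.51, 2.61 and 1.51 CPM in the D1 Res inputs and 8.7, 8.49 and 7.47 CPM in the D2 Res inputs, without overlap (log2 -1.89, adjusted p = 0.0885 with edgeR and 2.87e-06 with DESeq2). *Chat* did not separate the inputs, at 17, 19.4 and 9.23 CPM in the D1 Res and 13.6, 12.8 and 21.9 CPM in the D2 Res inputs. The RT; D2-Cre transgene was made from a piece of chromosome around *Drd2*, and its part in these values was not tested.

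Neuropeptide precursors differed more often than genes at large. The class markers *Pdyn*, *Tac1* and *Penk* are on this list, several later lists also hold class markers, and no share was computed without such genes. Of 30 tested members, 12 were called higher in D1 Res and 2 in D2 Res, 46.7% against 5.41% of all genes, with a median log2 fold change of 0.48 beside -0.01; with libraries scaled to the shared MSN genes there were 13 and 2, beside 11.1% of all genes. With single libraries left out the counts were 8 to 11 and 2, the fewest without D1 Res 1. In a model of the 9 resilient libraries alone, 27 members passed the filter on counts, and 9 and 2 were called. Besides *Pdyn*, *Tac1* and *Adcyap1*, *Cck*, which encodes cholecystokinin, was at 56.9, 76.1, 75.4 and 47.2 CPM in D1 Res and 26.8, 18.8, 20.2, 5.32 and 8.29 CPM in D2 Res (4.02-fold, adjusted p = 0.00278). *Crh*, the corticotropin-releasing hormone of the stress response, was at 11.2, 8.98, 7.03 and 10.2 CPM in D1 Res and 3.85, 2.41, 2.85, 5.78 and 5.07 CPM in D2 Res (2.34-fold, adjusted p = 0.0326). Both peptides were higher in every D1 Res library, but the call of *Crh* was lost in 6 of the 9 removals of a library (adjusted p 0.0557 to 0.0928). *Pthlh*, a parathyroid hormone-related peptide, was at 4.16, 3.61, 3.25 and 4.46 CPM in D1 Res and 0.613, 0.237, 0.075, 0.598 and 0.577 CPM in D2 Res (9.03-fold). The angiotensin precursor *Agt* was 7.74-fold and the interneuron peptide *Vip* 5.06-fold higher, again without overlap. *Agt* had 197, 89, 73 and 236 counts in D1 Res 1 to 4 and 3, 15, 10, 37 and 35 in D2 Res 1 to 5. Summed astrocyte markers were 98.4, 65.0, 60.7 and 89.8 CPM in D1 Res 1 to 4 and 50.1 to 64.8 CPM in D2 Res. The part of astrocytes in *Agt* was not tested. In *Cck* and *Adcyap1*, as in the cortical markers *Slc17a7* and *Tbr1*, D2 Res 4 and D2 Res 5 were the lowest libraries, and *Vip* and *Pthlh* are also on the list of GABAergic interneuron markers; the part of such cells in the peptide values was not tested. The natriuretic peptide *Nppc* (1.89-fold) and prokineticin 2, *Prok2* (2.2-fold), lost their calls in 4 and 5 of the 9 removals of a library (adjusted p 0.0605 to 0.176 and 0.0607 to 0.217), and both without D1 Res 1. Neither was called in the model of the 9 resilient libraries alone (adjusted p = 0.0507 and 0.0560).

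*Oxt*, the oxytocin precursor, was at 3.19, 0.969, 1.26 and 1.21 CPM in D1 Res and 0.0341, 0.0395, 0, 0.133 and 0.33 CPM in D2 Res (15.2-fold, adjusted p = 0.00869), with D1 Res 1 far above the rest of its group, and without D2 Res 5 the log2 fold change went from 3.93 to 4.83. *Avp*, the vasopressin precursor, had 55 counts in D1 Res and 3 in D2 Res, a rate ratio of 23.8 (exact 95% interval 7.74 to 119.1, counting error only), and was not called without D1 Res 1 (adjusted p = 0.0514). These peptides are made in the hypothalamus. Of the 9 markers of hypothalamic neurons, 5 were tested, and *Oxt* and *Avp* were called higher in D1 Res (40% beside 5.41% of all genes). No D2 Res library reached the 10 counts of the filter for either gene (*Avp* 0 to 1, *Oxt* 0 to 8). Among the 9 libraries only D1 Res could bring them into the test, so this share is a description. Both genes are also among the 12 peptide precursors called higher in D1 Res. In a model of the 9 resilient libraries alone, 4 of the markers were tested and 1 was called. The summed level was 5.28 to 13.1 CPM in D1 Res and 4.58 to 8.49 in D2 Res, with overlap. It was 3.3 to 10.9 CPM in the D1 Res inputs and 3.19 to 19.7 in the D2 Res inputs. In the inputs *Oxt* ran from 0 to 5.63 CPM. The part of hypothalamic RNA in these values was not tested.

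On the D2 Res side of the peptides stood *Penk* and *Npy*. Neuropeptide Y, a peptide of somatostatin interneurons, was at 10.2, 8.5, 13.3 and 7.31 CPM in D1 Res and 21.8, 19.5, 21.7, 14.4 and 16.4 CPM in D2 Res (1.9-fold, adjusted p = 0.00836). *Sst*, the somatostatin precursor of the same interneurons, overlapped at 36.8 to 59.4 CPM in D1 Res and 37.7 to 56.7 CPM in D2 Res (log2 -0.07 ± 0.175 SE, adjusted p = 0.841). The MSN peptides *Cartpt* (log2 -0.19 ± 0.108 SE) and *Nts* (log2 -0.20 ± 0.164 SE) also overlapped and did not pass, and these 3 small differences turned positive when scaled to the shared MSN genes (0.10 to 0.23).

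Receptors for peptides leaned toward D1 Res as well. Of 41 tested, 11 were called higher in D1 Res and 4 in D2 Res (36.6% beside 5.41% of all genes, median log2 fold change 0.28). The counts were 9 to 11 and 4 to 5 with single libraries left out. When scaled to the shared MSN genes they were 17 and 3, 48.8% beside 11.1% of all genes. *Oxtr*, the oxytocin receptor, was at 16.8, 15.5, 14.5 and 14.6 CPM in D1 Res and 5.11, 6.79, 5.29, 3.89 and 4.45 CPM in D2 Res (3.01-fold, adjusted p = 1.80e-05). *Nmbr*, the neuromedin B receptor, was at 8.58, 7.44, 6.57 and 6.28 CPM in D1 Res and 0.988, 1.42, 0.9, 0.831 and 1.11 CPM in D2 Res (6.87-fold, adjusted p = 1.78e-06). Neither overlapped. Of the 5 somatostatin receptors, 4 were called higher in D1 Res, *Sstr4* 3.3-fold, *Sstr3* 2.61-fold, *Sstr1* 2.32-fold and *Sstr2* 1.79-fold, the last with overlap, and *Sstr5* did not pass (log2 0.68 ± 0.371 SE, adjusted p = 0.218). The prokineticin receptor *Prokr2* (2.28-fold), the relaxin receptor *Rxfp1* (2.37-fold), the parathyroid hormone receptor *Pth1r* (2.13-fold) and the neurotensin receptor *Ntsr1* (1.86-fold) were also called, *Ntsr1* not without D1 Res 1, D1 Res 2 or D2 Res 3 (adjusted p 0.0522 to 0.0707). The vasopressin receptor *Avpr1a* (2.52-fold) overlapped, and 6 of the 9 removals of a library ended its call (adjusted p 0.0701 to 0.127 in these).

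The 4 peptide receptors higher in D2 Res were *Agtr1a*, *Tacr1*, *Oprd1* and *Trhr*. *Agtr1a*, the angiotensin II receptor, was at 0.425, 0.484, 0.265 and 0.392 CPM in D1 Res and 2.83, 1.89, 2.25, 1.96 and 2.06 CPM in D2 Res (5.64-fold, adjusted p = 2.17e-05), the opposite side from *Agt*. *Trhr*, the receptor of thyrotropin-releasing hormone, was at 12.7 to 23.4 CPM in D1 Res and 24.6 to 36.9 CPM in D2 Res (1.78-fold; log2 -0.53 and under the fold limit when scaled to the shared MSN genes). Of the other opioid receptors, the kappa receptor *Oprk1*, on which dynorphin acts, was at 46.9 to 58.3 CPM in D1 Res and 39.3 to 50.9 CPM in D2 Res (log2 0.16 ± 0.0763 SE), and the mu receptor *Oprm1* at 1.59 to 4.67 and 2.9 to 8.9 CPM (log2 -0.80 ± 0.458 SE). Neither passed the test.

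**Figure D4:**
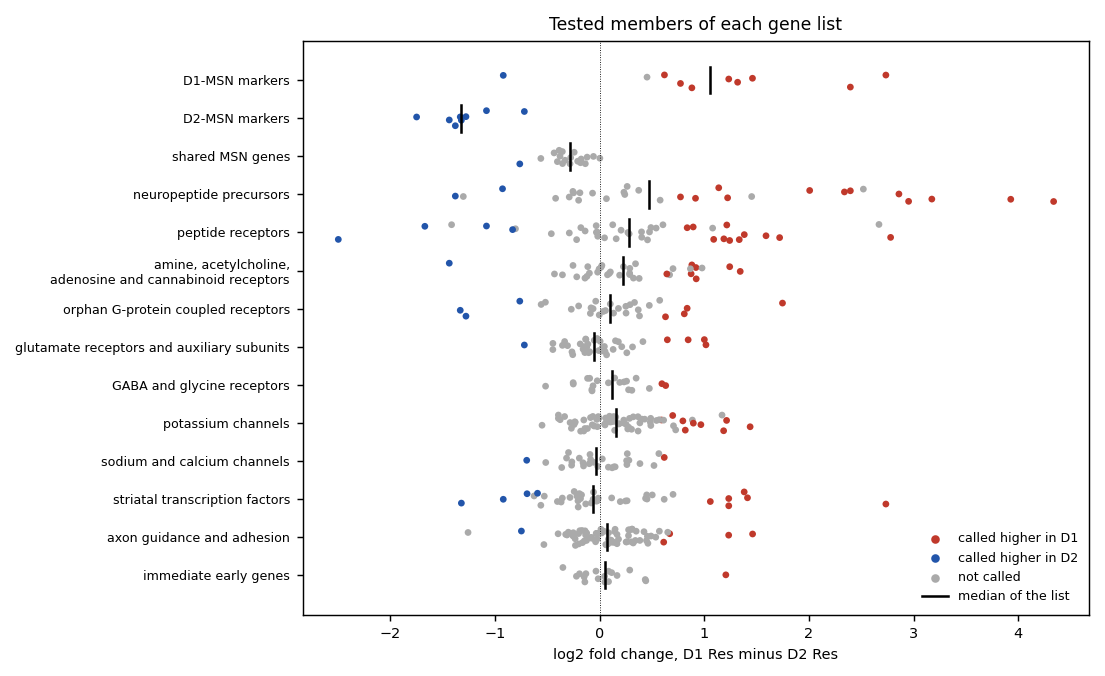
log2 fold change of D1 Res over D2 Res (TMM scaling) for each tested member of 14 gene lists; red and blue points were called, gray points were not, and black bars are list medians. Peptide precursors and peptide receptors reached the largest folds toward D1 Res, while most ion channel and glutamate receptor genes lay within 1 log2 unit of 0.

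Among 35 receptors for amines, acetylcholine, adenosine and cannabinoids, 7 were called higher in D1 Res and only *Adora2a* in D2 Res (22.9% called beside 5.41% of all genes, median log2 fold change 0.23). When scaled to the shared MSN genes the counts were 15 and 1, 45.7% beside 11.1% of all genes, and the median was 0.53. *Cnr1*, the cannabinoid receptor CB1, was at 172, 143, 169.8 and 156 CPM in D1 Res and 88.2, 88.3, 102, 84.3 and 74.2 CPM in D2 Res (1.83-fold, adjusted p = 5.46e-05). *Adra2a*, an adrenergic receptor that lowers cAMP, was at 19.2, 18.5, 20.3 and 15.3 CPM in D1 Res and 7.5, 7.02, 7.2, 7.08 and 7.26 CPM in D2 Res (2.54-fold, adjusted p = 5.16e-06). For both genes the classes did not overlap. The adrenergic receptors *Adra1b* (2.37-fold), *Adra2b* (1.89-fold) and *Adra1d* (1.9-fold) and the serotonin receptor *Htr5a* (1.56-fold) completed the called members with *Chrm4*. The call of *Adra1d* was lost in 7 of the 9 removals of a library (adjusted p 0.0532 to 0.116). The serotonin receptor *Htr2c* was at 241 to 261 CPM in D1 Res and 254 to 365 CPM in D2 Res and short of the fold limit (log2 -0.35 ± 0.0894 SE, adjusted p = 0.00607).

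Of 29 orphan receptors, 4 were called higher in D1 Res and 3 in D2 Res (24.1% beside 5.41% of all genes). When scaled to the shared MSN genes the counts were 9 and 2, 37.9% beside 11.1% of all genes. The 3 called toward D2 Res with TMM included the D2-MSN markers *Gpr6* and *Gpr52*. *Gpr101*, a receptor coupled to Gs, was at 81.6, 84.3, 61.5 and 96.4 CPM in D1 Res and 38.6, 40.4, 44.1, 54.8 and 48.7 CPM in D2 Res (1.79-fold, adjusted p = 0.0225). *Gpr139* (3.36-fold), *Gpr21* (1.75-fold) and *Gpr26* (1.55-fold) were the other 3. *Gpr101* and *Gpr26* lost their calls in 4 of 9 removals of a library each (adjusted p 0.0516 to 0.0668 and 0.0509 to 0.0710), and *Gpr21* without D1 Res 3 (adjusted p = 0.0711).

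Receptors for glutamate, GABA and glycine were called in smaller shares with TMM. Of 39 glutamate receptor and auxiliary subunit genes, 4 were called higher in D1 Res and 1, *Grik3*, in D2 Res (12.8% beside 5.41% of all genes), and the median was -0.05 with TMM. When scaled to the shared MSN genes, 6 were called higher in D1 Res and none in D2 Res, 15.4% beside 11.1% of all genes. Of the calls over all genes 94.2% were then higher in D1 Res. The median of the list was 0.23 with this scaling, beside 0.28 over all genes. *Cnih3*, an AMPA receptor auxiliary subunit, was at 45.7, 42.9, 43.4 and 40.0 CPM in D1 Res and 25.1, 20.0, 24.5, 20.2 and 17.5 CPM in D2 Res (2-fold, adjusted p = 0.000262). The presynaptic metabotropic receptors *Grm2* (2.02-fold) and *Grm8* (1.8-fold) and the NMDA receptor subunit *Grin3a* (1.57-fold) were also called. *Grin3a* lost its call without D1 Res 1 (adjusted p = 0.0590) or D1 Res 2 (0.0690), and without D2 Res 1 it was under the fold limit at log2 0.58. The AMPA auxiliary subunit *Shisa6* was at 10.6, 14.1, 12.5 and 9.84 CPM in D1 Res and 9.58, 10.1, 11.1, 8.38 and 9.98 CPM in D2 Res and did not pass (log2 0.26 ± 0.133 SE, adjusted p = 0.185).

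Of 20 GABA and glycine receptor genes, 2 were called, both higher in D1 Res (10.0% beside 5.41% of all genes). When scaled to the shared MSN genes 5 were called, 25% beside 11.1% of all genes. *Gabbr2*, a subunit of the metabotropic GABA-B receptor, was at 118, 114, 112 and 93.1 CPM in D1 Res and 70.5, 80.6, 64.8, 70.5 and 74.9 CPM in D2 Res (1.51-fold, adjusted p = 0.00153), and the glycine receptor subunit *Glra2* at 27.4 to 36 and 14.7 to 25.3 CPM (1.55-fold). Both sat at the fold limit: *Gabbr2* was at log2 0.56 to 0.58 in 4 of 9 removals of a library, and *Glra2* lost its call without D1 Res 2 (adjusted p = 0.0502) or D2 Res 5 (log2 0.54).

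Of 69 potassium channel genes tested, 9 were called higher in D1 Res and none in D2 Res (13% beside 5.41% of all genes; 7 to 11 and none with single libraries left out), with a median log2 fold change of 0.16. When scaled to the shared MSN genes 22 were called higher in D1 Res and again none in D2 Res (31.9% beside 11.1% of all genes, median 0.45). *Kcnc4*, a Kv3 channel of fast-spiking neurons, was at 46.2, 42.6, 35.7 and 29.6 CPM in D1 Res and 14.7, 13.5, 12.1, 13 and 17.7 CPM in D2 Res (2.71-fold, adjusted p = 6.56e-06). *Kcnj3*, a subunit of the channels that Gi-coupled receptors open, was at 74.4, 82.4, 94 and 57.5 CPM in D1 Res and 49.2, 50.5, 51.2, 36.4 and 34.6 CPM in D2 Res (1.74-fold, adjusted p = 0.00201). Its partner subunits *Kcnj6* (2.27-fold) and *Kcnj5* (1.86-fold) were also higher, *Kcnj5* not without D1 Res 1 (adjusted p = 0.0643). The 2-pore channels *Kcnk12* (2.32-fold) and *Kcnk13* (1.96-fold), the Kv1 subunit *Kcna6* (1.62-fold) the accessory subunit *Kcnab3* (1.76-fold) and a further Kv3 channel, *Kcnc2* (1.51-fold), were the others. *Kcnc2* lost its call in 5 of the 9 removals of a library (log2 0.51 to 0.57). Of 28 sodium and calcium channel genes, the T-type channel *Cacna1g* was called higher in D1 Res (1.54-fold) and the sodium channel *Scn9a* in D2 Res (1.62-fold), both with overlap (7.14% beside 5.41% of all genes). When scaled to the shared MSN genes 4 were called, all higher in D1 Res, 14.3% beside 11.1% of all genes. Of the calls over all genes 94.2% were then higher in D1 Res. *Cacna1g* was not called without D1 Res 1 (adjusted p = 0.0915) or D2 Res 3 (log2 0.56), and *Scn9a* was not called without D1 Res 1, D1 Res 3 or D2 Res 5 (adjusted p 0.0573 to 0.0631) or when scaled to the shared MSN genes (0.0944).

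Transcription factors divided between the classes. Of 41 factors of the striatum, 6 were called higher in D1 Res and 4 in D2 Res (24.4% beside 5.41% of all genes). The counts were 4 to 7 and 3 to 6 with single libraries left out. When scaled to the shared MSN genes they were 11 and 2, 31.7% beside 11.1% of all genes. *Ebf1*, *Isl1*, *Sp9* and *Tshz1*, all called with TMM, are also on the lists of class markers. *Zfp521*, a zinc finger partner of the Ebf factors, was at 22.8, 15.3, 14.9 and 21.8 CPM in D1 Res and 5.79, 6.31, 5.92, 7.91 and 9.15 CPM in D2 Res (2.66-fold, adjusted p = 6.50e-06). *Isl1*, a LIM-homeodomain factor of D1-MSN development, was at 24.8, 21.8, 20.6 and 27.6 CPM in D1 Res and 8.18, 10.5, 12.4, 7.51 and 12 CPM in D2 Res. With *Ebf1*, these 3 were higher in every D1 Res library. *Nfib* (2.08-fold), *Npas1* (2.35-fold) and the orphan nuclear receptor *Nr4a2* (2.61-fold) were also called. Without D1 Res 1, *Nfib* (adjusted p = 0.0590) and *Npas1* (0.0927) were not called. *Nfib* was also lost without D1 Res 2 (0.0911), D1 Res 3 (0.0766), D2 Res 4 (0.0872) or D2 Res 5 (0.0683). *Nr4a2* overlapped, at 15.3, 42.7, 47.9 and 9.34 CPM in D1 Res and 16.7, 14.4, 12.6, 5.12 and 6.43 CPM in D2 Res, and was lost without D1 Res 2, D1 Res 3, D2 Res 4 or D2 Res 5 (adjusted p 0.0520 to 0.118). It was also not called in a model of the 9 resilient libraries alone (adjusted p = 0.165).

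Toward D2 Res stood *Sp9*, *Tshz1*, *Six3* and *Rxrg*. *Sp9* was at 19.9, 21.4, 22.4 and 22.1 CPM in D1 Res and 54.7, 59, 52.6, 56.1 and 45.6 CPM in D2 Res. *Six3*, which with *Sp9* belongs to the program of D2-MSN differentiation, was at 77.6, 89.4, 91.5 and 96.2 CPM in D1 Res and 147, 151, 142, 146 and 131 CPM in D2 Res (1.62-fold, adjusted p = 1.71e-07). The retinoid receptor *Rxrg* was 1.51-fold higher. Under the scaling to shared MSN genes *Six3* (log2 -0.40) and *Rxrg* (log2 -0.30) kept their direction and fell short of the fold limit, and *Rxrg* was also short of it in 5 of 9 removals of a library (log2 -0.58 to -0.54).

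Of 72 genes of axon guidance and adhesion, 4 were called higher in D1 Res and 1 in D2 Res (6.94% against 5.41% of all genes), and 19 and none when scaled to the shared MSN genes (26.4% against 11.1%). *Ephb3*, a receptor tyrosine kinase for ephrins, was at 6.29, 7.18, 6.3 and 4.82 CPM in D1 Res and 2.42, 2.88, 2.62, 1.83 and 1.36 CPM in D2 Res (2.76-fold, adjusted p = 0.000641). The netrin-G protein *Ntng2* (2.35-fold) and the semaphorin co-receptor *Plxna1* (1.53-fold) were also called, *Plxna1* under the fold limit at log2 0.55 to 0.58 in 3 of 9 removals of a library. *Sema5b*, a guidance ligand, was higher in D2 Res, at 22.7, 27.2, 26.1 and 25.6 CPM in D1 Res and 39, 47, 43.6, 41.4 and 42.2 CPM in D2 Res (1.68-fold, adjusted p = 3.64e-06; log2 -0.45 when scaled to the shared MSN genes). Of 36 genes of dopamine receptors and cAMP signaling, 3 were called with TMM (8.33% against 5.41% of all genes), and 8 when scaled to the shared MSN genes (22.2% against 11.1%). Besides the class markers *Drd1* and *Drd2*, the gene called with TMM was *Adcy8*, an adenylyl cyclase stimulated by calcium. It was at 11.1 to 14.7 CPM in D1 Res and 4.57 to 9.32 CPM in D2 Res (1.76-fold, adjusted p = 0.00123).

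Immediate early genes, which neuronal activity induces, were called about as often as genes at large. Of 18 tested, 1 was called (5.56% against 5.41%), *Ier2*, higher in D1 Res at 2.97, 3.35, 2.06 and 1.21 CPM against 1.33, 0.83, 1.01, 0.665 and 1.32 CPM, with overlap, and 7 of the 9 removals of a library ended that call (adjusted p 0.0525 to 0.147). When scaled to the shared MSN genes 2 were called, 11.1% as among all genes. *Fos* was at 16.5, 12, 10.6 and 8.45 CPM in D1 Res and 5.18, 14.4, 12, 3.06 and 9.28 CPM in D2 Res (log2 0.44 ± 0.511 SE, adjusted p = 0.609). *Arc* ran from 53.4 to 86.1 CPM in D1 Res and 34.9 to 97.2 CPM in D2 Res, and *Egr1* from 248 to 295 and 272 to 363 CPM. The classes overlapped for all 3, and the small differences of *Arc* (log2 0.05 ± 0.376 SE) and *Egr1* (log2 -0.19 ± 0.163 SE) turned sign in some removals of a library and with the scaling to shared MSN genes (0.11), respectively.

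Markers of GABAergic interneurons and astrocytes were called in larger shares than the 5.41% of all genes. On the oligodendrocyte and endothelial lists 1 gene each was called. Of 9 markers of GABAergic interneurons, *Kit* (2.04-fold), *Vip* and *Pthlh* were called higher in D1 Res and *Npy* in D2 Res (44.4%). Of 8 astrocyte markers, the gap junction gene *Gja1* (1.87-fold) and *S100b* (1.58-fold) were called higher in D1 Res (25%), with a summed level of 60.7 to 98.4 CPM in D1 Res and 50.1 to 64.8 in D2 Res and 999.8 to 1107 CPM in the D1 Res inputs and 940.5 to 1031 in the D2 Res inputs. *S100b* was not called without D1 Res 1 (adjusted p = 0.0514) or at log2 0.58 without D2 Res 4. Of 9 oligodendrocyte markers *Olig1* (1.82-fold) was called (11.1%), but not without D1 Res 1 (adjusted p = 0.0683), with a summed level of 492 to 741 CPM in D1 Res and 417 to 609 in D2 Res. Both sums were highest in D1 Res 1 and D1 Res 4, at 98.4 and 89.8 CPM for astrocytes and 741 and 718 CPM for oligodendrocytes. In D1 Res 2 and D1 Res 3 they were 65.0 and 60.7 CPM and 503 and 492 CPM, within or just above the D2 Res ranges. Of 6 endothelial markers *Tek* was called higher in D2 Res (16.7%, 2.17-fold, 42 counts in D1 Res and 115 in D2 Res), and 6 of the 9 removals of a library ended that call (adjusted p 0.0589 to 0.156). In a model of the 9 resilient libraries alone, *Olig1* (adjusted p = 0.0541) and *Tek* (0.0669) were not called. When scaled to the shared MSN genes the counts were 5 and 1 for interneurons, 6 and 0 for astrocytes, 5 and 0 for oligodendrocytes and 0 for endothelial cells. These were 66.7%, 75%, 55.6% and 0% beside 11.1% of all genes. With TMM in the model of 28 IPs, none of 7 microglia markers, 5 markers of the islands of Calleja and septum, 4 of choroid plexus and ependyma or 4 sex-linked genes was called, where 1 choroid plexus or ependyma gene and 1 sex-linked gene had an adjusted p under 0.05 at a smaller fold. Other settings called members of 3 of these lists: 1 island and 2 choroid plexus or ependyma genes when scaled to the shared MSN genes, 2 island genes (1 in each direction) and 1 choroid plexus or ependyma gene with DESeq2, 1 island and 1 sex-linked gene with the replicate block, and at most 1 in a direction when single libraries were left out. The part of glial RNA in the genes higher in D1 Res was not tested.

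The same contrast could be set beside Con and Sus mice, which share no library with it, though all 28 IPs entered one model and one estimate of the spread. By the same rule 690 genes were called in Con mice (4.85%) and 779 in Sus mice (5.48%). Of the 769 Res calls, 492 were called in the same direction in Con, 64.0% of Res calls and 71.3% of Con calls, and 517 in Sus, 67.2% of Res calls and 66.4% of Sus calls. Called in the same direction in all 3 groups were 433 genes, 335 higher in D1 and 98 higher in D2, and no gene was called in opposite directions. The median log2 fold change of the Res calls higher in D1 was 1.01 in Res, 0.91 in Con and 0.93 in Sus, and that of the calls higher in D2 was -0.84, -0.64 and -0.61, where the Res values were used to choose the genes and the others were not.

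**Figure D5:**
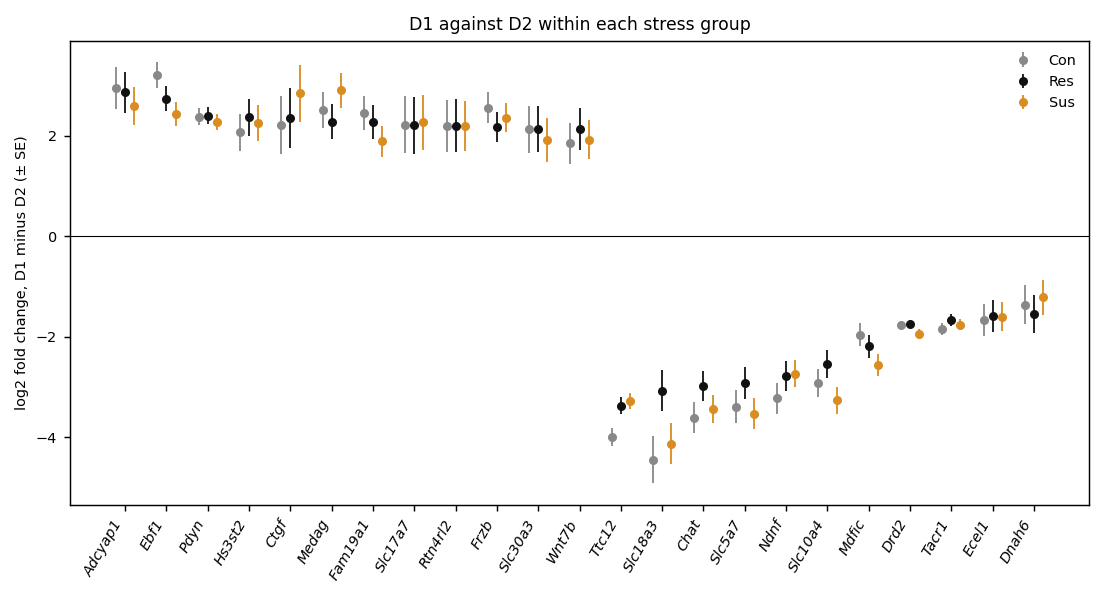
log2 fold change of D1 over D2 in Con (gray), Res (black) and Sus (orange) mice, with SE bars from the edgeR fit, for genes with the largest folds in each direction in Res. All those plotted had the same sign in the 3 groups, and none of their differences between groups passed an adjusted p under 0.05.

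Whether the D1 to D2 difference itself was other in Res mice was tested with interaction terms. No gene passed an adjusted p under 0.05 against Con (0%) or against Sus (0%) with edgeR, where 328 and 277 genes had an unadjusted p under 0.05, and none passed with DESeq2 (333 and 282 unadjusted). These unadjusted counts were all below the 5% of 14224 genes that chance alone would give. The smallest p against Con were those of *Aco1*, *Nkiras2* and *Ccs*. *Aco1*, cytosolic aconitase, was at 26.4, 25.9, 23.8 and 24.8 CPM in D1 Res and 19.4, 20.3, 20.3, 20.2 and 20.5 CPM in D2 Res (log2 0.32 in Res and -0.04 in Con, unadjusted p = 0.000215). *Nkiras2*, an inhibitor of NF-kappaB signaling, was at log2 0.10 in Res and -0.47 in Con (unadjusted p = 0.00101). *Ccs*, the copper chaperone of superoxide dismutase, was at -0.12 in Res and 0.25 in Con (unadjusted p = 0.00112), and its sign in Res turned to 0.17 when scaled to the shared MSN genes. Against Sus they were *Gm10406*, *Epha8* and *A430005L14Rik*. *Epha8*, an ephrin receptor, was at -0.04 in Res (0.26 with the same scaling) and -0.47 in Sus (unadjusted p = 0.00157), *Gm10406* at -1.08 and 1.14 (unadjusted p = 0.000551) and *A430005L14Rik* at 0.63 and 0.09 (unadjusted p = 0.00200). *Gm10406* had few counts, 21 in all in D1 Res and 59 in D2 Res, and its libraries overlapped. After adjustment the smallest p was 0.9996 against Con and 0.9998 against Sus.

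A total of 193 genes were called in Res and in neither of the other groups, 92 higher in D1 and 101 higher in D2. Of these, 36 in Con and 48 in Sus had an adjusted p under 0.05 at any fold. The interaction had an unadjusted p under 0.05 against both groups for 9 of the 193, beside 57 of all 14224 genes; a gene called in Res alone is chosen in a way that favors a small p in this test, so the 9 are a description. Chosen after their values were seen, *Unc119*, a trafficking protein for lipidated cargo, was at 11, 9.99, 10.3 and 9.95 CPM in D1 Res and 5.79, 5.45, 6.94, 5.05 and 6.18 CPM in D2 Res (log2 0.81 in Res, 0.39 in Con and 0.47 in Sus), and *Pth1r*, the receptor of parathyroid hormone-related peptide, at 3.4, 3.21, 1.99 and 2.39 CPM in D1 Res and 0.852, 1.3, 1.42, 1.36 and 1.48 CPM in D2 Res (log2 1.09, 0.33 and 0.37). Neither interaction passed after adjustment.

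In whole tissue few genes passed the test between the 2 lines, where 3 inputs of each line leave room for differences that were missed. Of 15063 genes tested between the 3 D1 Res and the 3 D2 Res inputs none was called with edgeR (0%), and 2 were called with DESeq2, *Ttc12* and *Mid1*. With edgeR 412 had an unadjusted p under 0.05, below the 5% that chance alone would give. *Mid1*, a ubiquitin ligase on the X chromosome, was at 17.6, 16.4 and 22.7 CPM in the D1 Res inputs and 7.94, 5.3 and 10.5 CPM in the D2 Res inputs, but overlapped in the IPs (log2 0.12 ± 0.349 SE). The median input log2 fold change was 0.03 over the 511 genes higher in the D1 Res IPs that were tested in inputs and -0.00 over the 253 higher in the D2 Res IPs, beside 0.00 over all genes tested in both. With an unadjusted p under 0.05 in the same direction in inputs stood 7 of the 511 and 9 of the 253.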

How the data were processed

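Per the labels and the methods of the study, NAc punches of 2 mice were pooled, HA-tagged ribosomes were immunoprecipitated, and stranded poly-A libraries were sequenced. The authors trimmed reads (cutadapt), aligned them to mm10 (STAR) and counted them per gene (HTSeq); versions, annotation and strand setting were not given in the sources used here. The deposited values were raw counts for 24552 genes, and 5 entries that name no gene were left out (10.4% to 17.1% of the 9 IPs were counted as without feature). A total of 2 columns without a sample description were not used.

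Counts were tested with edgeR 4.0.16 (R 4.3.3; quasi-likelihood, TMM factors, low genes dropped by filterByExpr at its settings of 10 per library and 15 in total) in one model of 28 IPs, and inputs in one model of 18 libraries, with Benjamini-Hochberg adjustment over all genes tested. A gene was called at a fold over 1.5 and an adjusted p under 0.05. Standard errors (SE) were the log2 fold change divided by the root of the F statistic. All p-values measure the spread between pools of mice. CPM were computed with TMM factors, and intervals of rate ratios were exact and cover counting error only. The code was tested on simulated data. Alternatives were DESeq2 1.42.0, other size factors and filters, no fold limit, glmTreat, a replicate block, a model of the resilient libraries alone, each library left out and, chosen after the data were seen, scaling to 19 shared MSN genes.

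Named genes were the class markers, the 12 largest folds in each direction among called genes without overlap and with a mean of at least 5 CPM, up to 6 called members in each direction of each gene list, list members with a known role in MSNs, and the 3 smallest interaction p for Con and for Sus. *Cck*, *Crh*, *Nppc*, *Prok2*, *Sstr1*, *Sstr2*, *Sstr5*, *Prokr2*, *Pth1r*, *Ntsr1*, *Htr5a*, *Kcna6*, *Kcnj3*, *Kcnc2*, *Unc119* and *Mid1* were named after their values were seen. Some genes that the rule names are not reported here. The comparison and the lists were chosen with earlier results of these data known. Libraries were assigned at random to 4 sequencing sets per the methods of the study, and since the set of each was not given in the sources used here, its effect was not tested. The study drew its resilient and susceptible mice from several batches of social defeat. The batch of each pool was likewise not given, and its effect was not tested.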

Additional observations from a re-analysis of the deposited data

Results flagged for a closer look

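In 326 groups of values (the genes given in the text and the summed lists, in the 4 D1 Res or the 5 D2 Res libraries), 19 single libraries lay apart from the rest of their group by Dixon's criterion, where chance gives about 1 in 20 groups.

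Of these 19, 9 were D1 Res 1. Its cholinergic genes were higher than in the other 3 libraries: *Chat* was at 6.42 CPM (others 1.5 to 2.02), *Slc18a3* at 2.80 (0.352 to 0.763), *Slc5a7* at 11.6 (2.86 to 4.31), *Tacr1* at 14.5 (8.99 to 9.77), *Gbx2* at 3.4 (1.76 to 1.96) and the summed cholinergic markers at 80.9 (39.1 to 45.9). It also had more *Oxt*, at 3.19 CPM (0.969 to 1.26), and less *Slc35d3*, at 68.5 CPM (76.2 to 77.5). Its *Ankk1* level of 0.0850 CPM stood for 2 counts beside 0 in the other 3.

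D2 Res 5 was the library apart in 8 groups. It was the highest of its group for *Chat* at 33.4 CPM (others 18.9 to 22.5), *Kcnab3* at 22.1 (17.9 to 19), *Gja1* at 8.37 (6.04 to 6.52) and the summed hypothalamic markers at 8.49 (4.58 to 5.44). It was the lowest for *Trhr* at 24.6 CPM (34.9 to 36.9), *Oprk1* at 39.3 (47.8 to 50.9), the summed genes of dopamine receptors and cAMP signaling at 18422 (19705 to 20143) and the summed amine, acetylcholine, adenosine and cannabinoid receptors at 2117 (2352 to 2447).

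The last 2 were *Kcnk12* in D2 Res 3, at 1.27 CPM (others 1.69 to 1.78), and *Pth1r* in D2 Res 1, at 0.852 CPM (1.30 to 1.48). For no gene did the D1 to D2 difference pass an adjusted p under 0.05 for being other in Res than in Con or Sus (interaction terms, edgeR).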

How the results depend on the processing

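The 769 calls between D1 Res and D2 Res became 771 with DESeq2 size factors, 738 and 614 with a looser and a stricter filter on counts, 832 with DESeq2 and 733 in a model of the 9 resilient libraries. With glmTreat there were 124 (85 higher in D1 Res, 39 in D2 Res), which asks more of each gene by construction, and with no fold limit 2447 (1344 and 1103). Scaled to the shared MSN genes there were 1578 (1486 and 92), and the cause was not tested. Leaving out each library gave 614 to 842 calls, 409 to 556 higher in D1 Res and 194 to 292 in D2 Res. Interactions with Con and Sus stayed at 0 calls in every alternative run for them, and inputs at 0 except 2 with DESeq2. Same-numbered D1 Res and D2 Res libraries deviated together with r of -0.21, 0.22, 0.38 and 0.28, and D1 Res 1 to 4 correlated best with D2 Res 5, 2, 1 and 4. Not every pair exceeded 0.1 and the labels tie the numbers to nothing shared, so the samples were not treated as paired. A replicate block gave 783 calls, 572 higher in D1 Res (73.1% against 67.0%) and 211 in D2 Res, and ended those of *Glra2*, *Nppc*, *Scn9a* and *Tek*.

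Of 136 genes given in the text 111 were called. Of these, 79 were called in every alternative that was compared gene by gene and in which they were tested. That comparison left out glmTreat, with 124 calls over the whole table, and the setting without a fold limit. No called gene changed direction in it. Scaling to the shared MSN genes turned the sign of 10 uncalled genes, *Ccs* (to 0.17), *Epha8* (0.26), *Cartpt* (0.10), *Egr1* (0.11), *Lhx8* (0.088), *Nts* (0.10), *Ppp1r1b* (0.018), *Sst* (0.23), *Tmprss5* (0.17) and *Zw10* (0.12), and the block that of *Tmprss5* (0.11). Leaving out a library turned that of *Arc* (-0.12 to 0.22), *Gbx2* (-0.25 to 0.26), *Mid1* (-0.083 to 0.28), *Ncam1* (-0.014 to 0.051), *Sst* (-0.21 to 0.034) and *Tmprss5* (-0.41 to 0.17). Depth limited genes of few counts, such as *Avp* (55 counts in D1 Res, 3 in D2 Res) and *Tek* (42 and 115).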
